A study of Mus musculus with 10 samples.

Results

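The genes described here encode the subunits of the mitochondrial respiratory chain and ATP synthase, together with a few factors that assemble complex I. They were taken by symbol, with no measured value involved. Every window in the authors' 4 lists of open chromatin was kept whose nearest gene had a symbol beginning with Ndufa, Ndufb, Ndufc, Ndufs, Ndufv, Uqcr, Cox4 to Cox8 or Atp5, or was Sdha, Sdhb, Sdhc or Sdhd. This gave 102 distinct regions at 70 genes, out of 35534 regions at 12687 genes in the 4 lists together. The open chromatin was mapped by ATAC-seq, in which a transposase inserts adapters into accessible DNA, in MC3T3-E1 cells, a mouse line of osteoblast precursors.

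All cells were first kept in medium with reduced serum. The 4 groups were untreated cells, cells given TNFa at 10 ng/ml, cells given BMP4 at 10 ng/ml for 3 h, and cells given both TNFa and BMP4, with 2 libraries in each. The labels disagree on how long TNFa acted: the protocol has it added 30 min before BMP4, and the sample labels give 3 h. The titles of the TNFa libraries alone carry the word p65, which the labels do not explain. The column headers give the 8 ATAC libraries 1 shared prefix, whose meaning is not stated, and separate cultures are not named. A p-value here therefore reflects the spread of these libraries, possibly a technical one. A further 2 libraries of sonicated DNA, with another prefix, served as background. Total tags (M) ran from 16.5 to 30.1 a library, with the TNFa libraries (16.5 and 19.7) below the untreated ones (30.1 and 29.1). Of 12 osteoblast markers, 10 or 11 had a window at any distance in each list. So did 3 or 4 of 5 chondrocyte markers, and 2 or 3 of 5 adipocyte and of 5 endothelial markers. For haematopoietic markers it was 1 to 3 of 7, and for muscle markers 0 of 4. At promoters the counts were 4 or 5 for osteoblast markers, 1 for chondrocyte (Sox9) and 1 for adipocyte markers (Cebpa). They were 0 or 1 for haematopoietic, 0 for endothelial and 0 for muscle markers. Alpl was the osteoblast marker without a window in any list.

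In the respiratory chain, complex I (NADH dehydrogenase) and complex II (succinate dehydrogenase) pass electrons from metabolites to ubiquinone, complex III (the cytochrome bc1 complex) passes them on to cytochrome c, and complex IV (cytochrome c oxidase) gives them to oxygen. The proton gradient built on the way drives complex V, the ATP synthase. Nuclear genes encode most of the subunits, and their promoters are known for binding NRF1, the ETS-family factor GABP, YY1 and SP1, which are active in most cell types. Osteoblasts use both glycolysis and respiration, and their reliance on each shifts with differentiation.

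The protein-coding genes that match the rule number 96 in the RefSeq annotation of GRCm38.p6, and 69 of them had a window in at least 1 list. The remaining member, Ndufa11b, is not protein-coding there. Complex I had windows at 31 of 41 genes and its Ndufaf assembly factors at 7 of 8. Complex II had windows at 2 of 4 genes, Sdhb and Sdhc, complex III at 7 of 8, complex IV at 10 of 18 and complex V at 12 of 17. Some of these genes had only windows away from a promoter. A promoter window was found for 61 of the 70 genes. These were 27 of complex I, 7 assembly factors, 2 of complex II, 6 of III, 9 of IV and 10 of V. Among the genes without a window were the complex II flavoprotein subunit Sdha, the complex III core subunit Uqcrc1 and the ATP synthase alpha subunit Atp5a1. Several others without a window are tissue-specific forms, such as Cox6a2, Cox7a1 and Cox8b, the forms of heart and skeletal muscle, and Cox8c of testis. A gene without a window is one whose signal did not pass the authors' threshold over background.

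Promoters made up most of the set. By the annotation in the lists, 58 of 80 windows in the untreated list (72.5%), 57 of 80 in the TNFa list (71.3%), 43 of 66 in the BMP4 list (65.2%) and 54 of 75 in the list of both (72.0%) were promoter windows, against 31.8% to 35.0% of all windows. In the authors' deposited table the promoter windows of these genes stood at a median log2 fold over background of 3.13 in the untreated list, 2.94 with TNFa, 3.58 with BMP4 and 3.02 with both. The medians over all promoter windows in the same deposited lists were 3.49, 3.40, 3.70 and 3.40, each above that of the respiratory chain promoters. The lists do not hold the same promoters. Over the 37 promoter regions of these genes in all 4 lists, the deposited medians were 3.58, 3.46, 3.58 and 3.42. Those over all promoter regions in all 4 lists were 3.74, 3.60, 3.83 and 3.62. The other windows lay up to 90389 bp from the start site, and many belong to these genes only by being nearest. Windows assigned to Atp5o lie in introns of Itsn1, windows assigned to Cox4i2 lie in Bcl2l1, and the strongest window assigned to Atp5h lies at the end of Mrpl58. Others lie in the gene itself, such as those 397 bp downstream of the Ndufaf3 start and 235 bp downstream of the Atp5mpl start.

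The promoter sequences of 8 genes are shown because their windows carry the results below: those with the highest level in each complex (Ndufs8, Sdhb, Uqcrh, Cox8a and Atp5g2) and those with the smallest p in the comparison of libraries with and without BMP4 (Ndufaf3, Ndufb4 and Cox7a2l). Atp5b, the catalytic beta subunit of ATP synthase, was added after its values were seen, since its window shows how libraries stand apart. Each is the 250 bases before the RefSeq start in GRCm38.p6, 5′ to 3′ on the gene's strand, and capitals mark a match to 1 of 5 motif words on either strand. The words were GCGCATGC for NRF1, CCGGAAG for ETS/GABP, AAGATGGC for YY1, GGGCGG for SP/KLF and TGACGTCA for the CRE core, and no word contains another.
Ndufs8 (chr19:3912775-3913024, minus strand): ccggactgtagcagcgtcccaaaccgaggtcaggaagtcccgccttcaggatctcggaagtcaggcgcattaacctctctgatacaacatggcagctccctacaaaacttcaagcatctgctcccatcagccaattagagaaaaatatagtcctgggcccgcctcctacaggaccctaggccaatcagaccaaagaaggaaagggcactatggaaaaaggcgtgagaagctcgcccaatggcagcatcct
Sdhb (chr4:140961021-140961270, plus strand): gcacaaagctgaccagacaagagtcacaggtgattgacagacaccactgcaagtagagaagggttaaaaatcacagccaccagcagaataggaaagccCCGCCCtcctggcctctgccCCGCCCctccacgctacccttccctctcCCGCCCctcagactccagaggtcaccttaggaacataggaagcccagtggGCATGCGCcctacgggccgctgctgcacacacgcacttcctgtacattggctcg
Uqcrh (chr4:116075071-116075320, minus strand): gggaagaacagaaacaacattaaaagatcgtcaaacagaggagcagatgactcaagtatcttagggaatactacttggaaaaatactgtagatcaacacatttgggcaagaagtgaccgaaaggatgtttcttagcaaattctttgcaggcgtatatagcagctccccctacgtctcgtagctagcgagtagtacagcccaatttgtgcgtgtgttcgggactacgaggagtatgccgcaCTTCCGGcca
Cox8a (chr19:7217617-7217866, minus strand): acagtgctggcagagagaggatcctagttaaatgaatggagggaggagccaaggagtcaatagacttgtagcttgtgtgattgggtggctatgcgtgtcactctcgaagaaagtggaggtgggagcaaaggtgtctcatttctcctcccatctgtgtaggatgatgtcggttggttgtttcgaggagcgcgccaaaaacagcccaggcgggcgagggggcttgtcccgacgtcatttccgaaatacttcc
Atp5g2 (chr15:102671048-102671297, minus strand): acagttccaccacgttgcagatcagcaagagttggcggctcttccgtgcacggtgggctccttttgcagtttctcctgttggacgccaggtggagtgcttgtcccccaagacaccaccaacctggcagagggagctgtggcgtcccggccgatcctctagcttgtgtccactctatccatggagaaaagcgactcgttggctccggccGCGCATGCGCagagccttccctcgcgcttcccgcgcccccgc
Ndufaf3 (chr9:108567437-108567686, minus strand): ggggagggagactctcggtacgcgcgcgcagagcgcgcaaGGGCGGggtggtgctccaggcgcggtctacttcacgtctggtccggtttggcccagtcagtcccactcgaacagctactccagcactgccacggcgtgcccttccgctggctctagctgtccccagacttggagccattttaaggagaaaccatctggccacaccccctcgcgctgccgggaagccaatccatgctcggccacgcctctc
Ndufb4 (chr16:37654369-37654618, minus strand): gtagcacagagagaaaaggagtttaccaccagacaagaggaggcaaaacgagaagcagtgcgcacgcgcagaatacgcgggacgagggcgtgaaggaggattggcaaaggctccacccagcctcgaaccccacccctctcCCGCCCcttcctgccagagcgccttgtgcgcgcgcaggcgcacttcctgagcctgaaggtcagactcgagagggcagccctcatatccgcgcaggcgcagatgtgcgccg
Cox7a2l (chr17:83514334-83514583, minus strand): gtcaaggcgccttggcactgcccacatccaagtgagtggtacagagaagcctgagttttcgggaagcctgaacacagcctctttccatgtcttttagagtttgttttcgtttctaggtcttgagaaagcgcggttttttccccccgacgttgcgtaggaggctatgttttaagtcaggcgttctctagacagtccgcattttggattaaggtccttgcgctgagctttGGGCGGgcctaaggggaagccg
Atp5b (chr10:128083057-128083306, plus strand): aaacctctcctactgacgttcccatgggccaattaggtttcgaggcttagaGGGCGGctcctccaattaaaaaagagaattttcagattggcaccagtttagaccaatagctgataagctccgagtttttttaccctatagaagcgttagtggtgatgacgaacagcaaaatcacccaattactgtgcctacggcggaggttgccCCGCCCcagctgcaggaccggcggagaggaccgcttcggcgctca

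The ATAC window lies wholly within the stretch shown for Ndufs8, Cox8a, Atp5g2, Ndufaf3 and Atp5b, where all 125 bases overlap. It overlaps by 118 bases at Uqcrh, 114 at Ndufb4, 73 at Sdhb and 53 at Cox7a2l, whose window reaches further upstream. Sdhb holds 3 SP/KLF words and 1 NRF1 word. Atp5g2 holds 2 overlapping NRF1 words, since that word was read on both strands of the same palindromic run. Uqcrh holds an ETS/GABP word, and Ndufaf3, Ndufb4 and Cox7a2l hold 1 SP/KLF word each. Atp5b holds 2 SP/KLF words. Ndufs8 and Cox8a hold none in the stretch shown.

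Over whole RefSeq promoter windows of 300 bases, which run 50 bases past the start, 56 of the 70 genes matched with 61 promoters. The NRF1 word was in 9 of the 61 (14.8%), against 2.71% of all 32851 promoters of the same length. The ETS/GABP word was in 15 (24.6%, against 8.86%), and the YY1 word in 7 (11.5%, against 2.75%). The SP/KLF word was in 27 (44.3%, against 35.7%) and the CRE word in 3 (4.92%, against 1.79%). Any of the 5 words was in 43 of the 61 (70.5%), against 41.9% of all promoters. Genes with the NRF1 word were Atp5g2, Atp5l, Cox6a1, Ndufa6, Ndufa8, Ndufaf4, Ndufaf5, Sdhb and Uqcr11. The 61 promoters are of genes with a window in the lists, while the 32851 were taken whether open or not. A share over open promoters alone was not taken. These shares describe letters in a window, not bound sites.

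Of the 102 regions, 49 were in all 4 lists (48.0%, against 42.5% of all regions). Counting promoters alone, 37 of 66 were in all 4 (56.1%, against 60.3% of all promoter regions). Both genes of complex II with a window, Sdhb and Sdhc, had a region in all 4 lists, as did 10 of 12 genes of complex V and 8 of 10 of complex IV. Complex I had 14 of 32, its assembly factors 3 of 7 and complex III 2 of 7, Uqcrh and Uqcrq. These counts include genes whose shared regions all lay away from a promoter, such as Atp5h, Atp5o and Cox4i2. Windows of different lists count as 1 region where they overlap by at least 63 bp.

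A further 12 regions were in the untreated, TNFa and combined lists but not in the BMP4 list, and all 12 were promoters. They are the promoters of the complex I subunits Ndufb10, Ndufa7, Ndufa8, Ndufb6, Ndufc2 and Ndufab1, of the assembly factors Ndufaf2, Ndufaf4 and Ndufaf5, of Uqcr11 and Uqcrb of complex III, and of Atp5g3, a gene for the c-ring subunit of ATP synthase. They form 18.2% of the 66 promoter regions, while 5.91% of all 10115 promoter regions showed this pattern. Each of the 4 lists has its own threshold and no replicate, so absence from a list is not a measured difference. The 12 windows were weak where they were listed. In the authors' deposited table their median log2 fold over background was 2.22 in the untreated list, 2.47 with TNFa and 2.31 with both, whereas the 37 promoters in all 4 lists had medians of 3.58, 3.46 and 3.42. Their recovered tags ranged from 12 to 61 in untreated library 1, from 12 to 43 in untreated library 2, from 4 to 29 and 19 to 44 in the TNFa libraries and from 3 to 25 and 13 to 43 in the combined libraries, against 5 to 19 and 4 to 17 in the background libraries. Untreated library 1 exceeded library 2 at Ndufab1 (49 and 12 tags), Ndufa8 (41 and 14) and Ndufaf4 (61 and 19), so the spread within 1 group was wide at these promoters. When the lists were brought to the same length by the authors' adjusted p, 6 regions showed the pattern, 5 of them among the 12. They were 9.52% of 63 promoter regions of these genes, against 6.10% of all 9854.

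**Figure D1:**
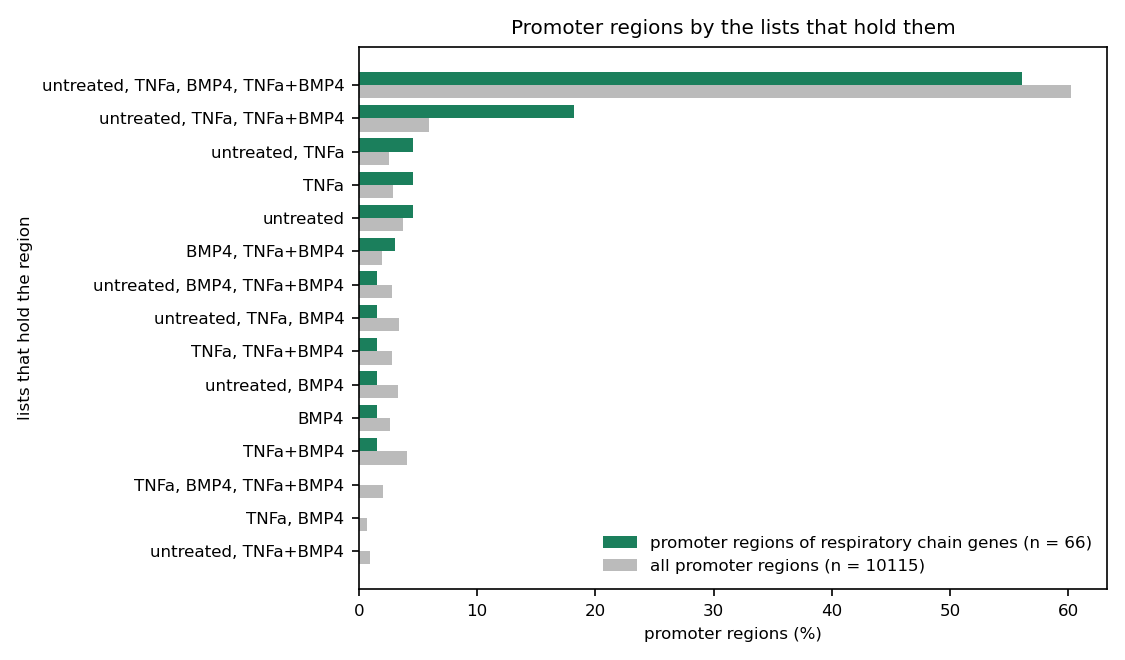
Share of promoter regions (%) by the combination of lists that holds them, for the 66 promoter regions of respiratory chain genes (green) and all 10115 promoter regions (grey). The green bar for the lists of untreated, TNFa and TNFa+BMP4 cells stands at 18.2% beside 5.91% in grey.

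Between the lists in which they could be matched, none of these 12 promoters passed the test. Of all windows in the same fits, 17765 to 18622 a comparison, 0 passed. These fits hold no library of cells given BMP4 alone, so they cannot bear on the absence from the BMP4 list. TNFa minus untreated had a median log2 difference of 0.18 over the 12 (from -0.046 to 0.84, 10 above 0), TNFa+BMP4 minus untreated -0.18 (from -0.39 to 0.56, 5 above 0), and TNFa+BMP4 minus TNFa -0.26 (from -0.66 to 0.076, 1 above 0). Over all windows of the same fits the medians were 0.0003, -0.025 and 0.011, in the same order. The smallest adjusted p of the 12 (limma, 4 libraries of the 2 groups) was 0.947. This fit was chosen after it was seen that the BMP4 list lacked these promoters.

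Regions found in the lists of only 1 pair of groups were few. Both lists without BMP4, and no other, held 3.92% of the regions of these genes, against 2.84% of all regions. For both lists with BMP4 the shares were 2.94% against 2.57%. For both lists with TNFa they were 3.92% against 4.18%, and for both without TNFa 1.96% against 7.36%. Both lists without BMP4, and no other, held the Atp5j window 28 bp downstream of a start, the Ndufb8 promoter, a window 50691 bp upstream of Ndufb4 and an Atp5g1 window 271 bp upstream of its start. Both lists with BMP4 held instead an Atp5g1 window 90 bp upstream, 181 bp from the former, so the c-ring gene had an open promoter in all 4 lists and only the position called differed. Its recovered tags were 355 and 596 in untreated and 135 and 326 in TNFa libraries at the outer position, and 149 and 557 in BMP4 and 146 and 362 in combined libraries at the inner one. At Ndufs7, which encodes an iron-sulphur subunit of complex I, the position called differed between the lists with and without TNFa. Tags at a position were recovered only for the lists that called it, so a shift was not measured at Ndufs7 or Atp5g1. The untreated and BMP4 lists held a window 335 bp upstream (179, 231, 119 and 259 tags), and the TNFa and combined lists held 1 window 191 bp upstream (32, 208, 45 and 62 tags). Of the others, both lists with TNFa, and no other, held a window 235 bp downstream of the Atp5mpl start. Atp5mpl also had a promoter window in all 4 lists. The same lists, and no other, held windows 31073 and 37969 bp upstream of Atp5o, the latter with 3 to 9 tags a library. The untreated list held a window 296 bp from the former. Both lists without TNFa, and no other, held a window 6511 bp downstream of Uqcr10. The lists with BMP4 also held a weak window 997 bp upstream of Ndufaf4, with 4 to 8 tags a library, and an intron window of Gatad2a 34072 bp upstream of Ndufa13.

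To compare groups, tag counts were recovered from the deposited log2 values and put on 1 scale (tags-per-million of the tags in tested windows). Of 14416 windows matched in all 4 lists and tested, 47 belonged to 37 respiratory chain genes: 16 to complex I, 4 to its assembly factors, 2 to complex II, 2 to complex III, 9 to complex IV and 14 to complex V. All 47 had passed the authors' threshold in every list. The tags of each group came from its own list's window, which overlapped the others but could be shifted from them. Of these, 35 were promoter windows, at 34 genes. A level in a pool of cells does not tell fewer cells with open chromatin from less opening in each.

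The highest mean levels over the 8 libraries were not at promoters. The window at the end of Mrpl58 assigned to Atp5h averaged 300.4 tags-per-million and ranged from 158 to 461. Another window close by averaged 264. These were followed by the promoters of Ndufs8 (125), Ndufaf8 (113), Uqcrh (112) and Uqcrq (106). The Uqcrh window is annotated to Lrrc41, a neighbouring gene. At the low end stood Ndufaf1 (10.5), Cox7c (14.0), an oxidase subunit, and Atp5j2 (18.4). The median promoter was 53.7 for complex I, 30.8 for the 2 promoters of complex II, 109 for the 2 of complex III, 36.5 for complex IV and 36.7 for complex V, while the median over all 5905 promoter windows was 58.1. In background libraries the 47 windows had a median of 1.62 and 1.61 tags when each library is scaled to 10 M tags, against 12.1 to 23.3 in the 8 ATAC libraries.

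Values in every library show how far the libraries of 1 group lay apart. The Ndufs8 promoter, at an iron-sulphur subunit of complex I, had 62.0 and 192 tags-per-million untreated, 91.0 and 95.6 under TNFa, 150 and 205 under BMP4, and 138 and 64.6 under both factors. The Sdhb promoter, at the iron-sulphur subunit of complex II, had 32.7 and 41.1 untreated, 32.6 and 33.5 under TNFa, 21.7 and 44.5 under BMP4, and 22.6 and 40.8 under both factors. The BMP4 libraries thus spanned the untreated values at Sdhb, and the widest gap within a group at Ndufs8 was in untreated cells. The Uqcrh promoter, at the hinge protein of complex III, had 147 and 67.5 untreated, 125 and 160 under TNFa, 93.8 and 60.4 under BMP4, and 93.0 and 151 under both factors. The Cox8a promoter, at an oxidase subunit found in most tissues, had 70.4 and 127 untreated, 80.7 and 40.6 under TNFa, 71.0 and 154 under BMP4, and 81.8 and 84.9 under both factors. The Atp5g2 promoter, at another c-ring gene, had 61.2 and 144 untreated, 77.2 and 105 under TNFa, 120 and 122 under BMP4, and 121 and 41.9 under both factors. At none of these 5 promoters did a treated group lie wholly apart from untreated cells.

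**Figure D2:**
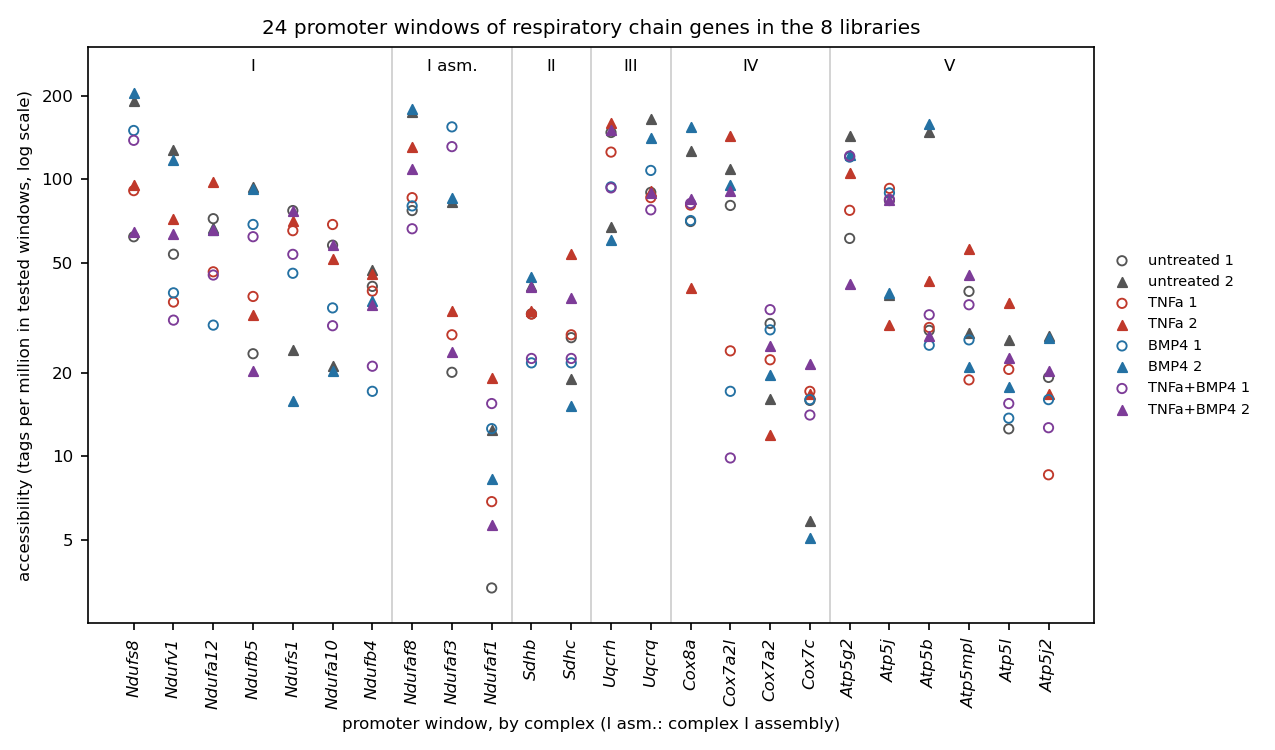
Accessibility of 24 of the 35 promoter windows, those named by level or by difference (tags-per-million in tested windows, log scale) in each of the 8 libraries, grouped by complex, with circles for library 1 and triangles for library 2 of a group. At Atp5b the triangles of untreated and BMP4 cells (148 and 158) stand above the other 6 libraries (25.2 to 43.0).

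The libraries fell together across the groups rather than within them. Untreated library 2 and BMP4 library 2 correlated at 0.97 over the 47 windows, BMP4 library 1 and combined library 1 at 0.94, and untreated library 1 and combined library 2 at 0.92. The 2 untreated libraries correlated at 0.52 and the 2 BMP4 libraries at 0.52. These are correlations across windows of different libraries, given as a description. The windows share their libraries and their scaling, and the same ordering held over all 14416 windows (0.95, 0.93 and 0.90, against 0.59 and 0.39). Untreated library 2 and BMP4 library 2 both lay above the other 6 libraries at 16 of the 47 windows (34.0%, against 24.5% of all windows), and both below them at 9 (19.1%, against 22.7%). The 16 include the promoters of Ndufs8, Ndufv1, Ndufb5, Ndufb2, Sdhb, Uqcrq, Cox8a, Atp5b and Atp5g2, and the 9 include those of Ndufs1, Ndufa10, Ndufb11, Sdhc, Uqcrh and Cox7c. Atp5b had 28.5 and 148 tags-per-million untreated, 29.2 and 43.0 under TNFa, 25.2 and 158 under BMP4, and 32.4 and 27.2 under both factors. The difference within the untreated and the BMP4 group at this promoter exceeds every difference between group means there.

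The position of a promoter window went along with this. Taking each window's deviation from its mean over the 8 libraries, the 12 promoter windows centred more than 80 bp upstream of the start had a median log2 deviation of 0.71 in untreated library 2 (11 of 12 above 0) and 0.84 in BMP4 library 2 (10 of 12). The 23 windows nearer the start had medians of -0.18 (9 of 23 above 0) and -0.17 (9 of 23). In untreated library 1 the order was opposite, with -0.48 upstream and 0.27 near the start. Over all 5905 promoter windows the same medians were 0.080 and -0.096 in untreated library 2 and 0.12 and -0.093 in BMP4 library 2. The 80 bp were set after the values were seen. Spearman's rho of deviation with distance over the 35 windows was -0.47 in untreated library 2 and -0.43 in BMP4 library 2, and 0.31 and 0.37 in untreated library 1 and combined library 2. Over all promoter windows it was -0.058, -0.067, 0.066 and 0.11. Its part in the comparisons below was not tested.

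**Figure D3:**
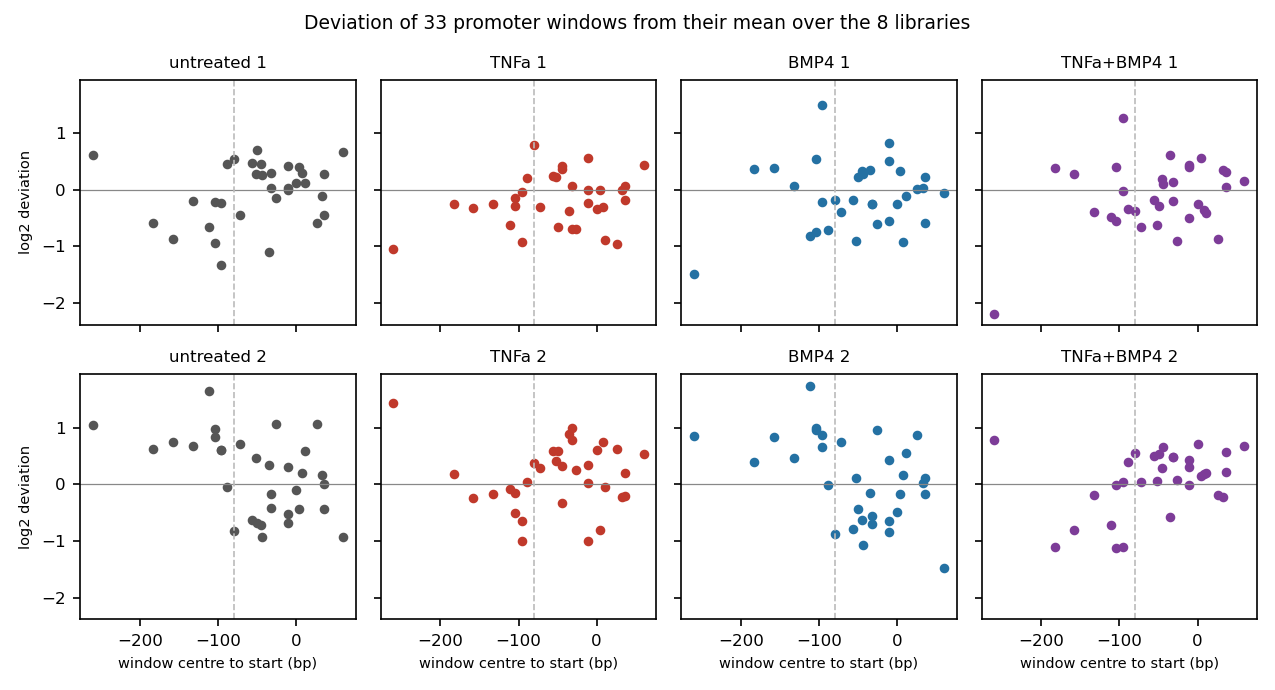
Log2 deviation of each promoter window from its mean over the 8 libraries against the distance of its centre from the start site (bp), 1 panel per library. The dashed line marks 80 bp upstream and 2 windows farther than 300 bp upstream are not drawn. In untreated 2 and BMP4 2 the windows left of the line lie mostly above 0.

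With TNFa alone, no respiratory chain window passed the test. The 47 windows had a median log2 difference from untreated cells of -0.094, with 17 above 0, while the median over all windows was -0.0001 and that over all promoter windows 0.045. Of the 35 promoter windows 12 were above 0 (34.3%, against 53.8% of all promoter windows). The median of the 47 depended on single libraries. Without untreated library 2 it was -0.028, beside -0.044 over all windows, and without TNFa library 1 it was -0.17, beside 0.043. By complex the promoter medians were -0.048 for I, 0.29 for the 2 of II, 0.020 for the 2 of III, -0.15 for IV and -0.058 for V. The highest differences were at the window 36263 bp upstream of Ndufb4 (1.12 ± 0.56, SE), the promoters of Ndufa10 (0.72 ± 0.64), Sdhc (0.72 ± 0.55), the membrane anchor of complex II, and Cox7c (0.67 ± 0.64), and the Ndufaf3 window 397 bp downstream of its start (0.67 ± 1.08). The lowest were at the Cox4i2 window in Bcl2l1, 31547 bp from the Cox4i2 start (-1.69 ± 0.93), the nearer Cox4i2 window (-0.97 ± 0.86), Atp5b (-0.85 ± 0.97), Atp5j2 (-0.82 ± 0.55) and the Atp5g2 window 14177 bp downstream (-0.82 ± 0.60). Leaving out 1 library shrank 9 of these 10 values by over 1.5 times or turned them. Without untreated library 2, Atp5b stood at 0.28, the Ndufaf3 window at -0.16, Ndufa10 at 0.017, Cox7c at 0.060, the Bcl2l1 window at -0.51 and the Atp5g2 window at -0.20. Without TNFa library 1, the Ndufaf3 window stood at -0.19, the nearer Cox4i2 window at -0.10 and Atp5j2 at -0.41, and without TNFa library 2 Sdhc stood at 0.28. limma with Benjamini-Hochberg adjustment over all windows called 0 of the 47 and 0% of the 14416 windows. At an unadjusted p under 0.05 it counted 0 of the 47 and 151 of all, and with voom weights 0 and 140. Both TNFa libraries lay above both untreated ones at 3 of the 47 windows (6.38%, against 8.88% of all windows) and below at 1 (2.13%, against 10.5% of all). These were Sdhc, Cox7c and the far Ndufb4 window, and Atp5j2.

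With BMP4 alone the 47 windows had a median of -0.023 with 22 above 0, beside 0.0091 over all windows. Of the promoter windows 14 of 35 were above 0 (40.0%, against 50.6% of all promoter windows), and 3 of the 12 of complex I. The highest differences were at the promoters of Ndufaf3, a complex I assembly factor (1.44 ± 0.91), Ndufb5 (0.72 ± 0.76) and Ndufs8 (0.67 ± 0.67), the window 22229 bp upstream of Ndufb4 (0.75 ± 1.00) and the Cox4i2 window in Bcl2l1 (0.48 ± 0.93). The lowest were at the promoters of Cox7a2l (-1.15 ± 1.20), which promotes supercomplexes of III and IV, Ndufb4 (-0.76 ± 0.55), Ndufs1 (-0.64 ± 0.71), the largest subunit of complex I, and Ndufa12 (-0.62 ± 0.61), and at the nearer Cox4i2 window (-0.89 ± 0.86). Leaving out 1 library turned the sign at 7 of these 10 and shrank the other 3 by over 1.5 times. Without untreated library 1, Ndufb5 stood at -0.22, Ndufs8 at -0.12, the Bcl2l1 window at -0.71 and Ndufs1 at 0.17. Without BMP4 library 1, Cox7a2l stood at 0.021, the nearer Cox4i2 window at 0.16 and the Ndufb4 window at -0.28, and without BMP4 library 2 the Bcl2l1 window stood at -0.15 and Ndufs1 at 0.058. limma called 0 of the 47 and 0% of all windows, with 0 and 28 at an unadjusted p under 0.05 and 0 and 32 with voom weights. BMP4 libraries lay wholly above untreated ones at 2 windows (4.26%, against 8.32% of all windows), the Ndufaf3 promoter and the far Ndufb4 window. They lay wholly below at 4 (8.51%, against 8.68% of all), the promoters of Ndufa12, Atp5mpl, Ndufb4 and Ndufa2.

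Cells given both factors had a median of 0.034 against untreated cells, with 25 of 47 windows above 0, beside -0.0065 over all windows. The highest differences were at the Ndufaf3 window downstream of its start (1.44 ± 1.08), the far Ndufb4 window (1.29 ± 0.56), both Atp5h windows (0.81 ± 0.55 and 0.75 ± 0.64) and the Cox7c promoter (0.71 ± 0.64). The lowest were at both Cox4i2 windows (-1.69 ± 0.93 and -1.17 ± 0.86) and the promoters of Cox7a2l (-1.53 ± 1.20), Atp5b (-1.09 ± 0.97) and Ndufv1 (-0.87 ± 0.75), which carries the NADH-binding site of complex I. Leaving out 1 library shrank all 10 by over 1.5 times or turned them. Without untreated library 2, Atp5b stood at 0.035 and Cox7c at 0.099, and without combined library 1 Cox7a2l stood at -0.048. limma called 0 of the 47 and 0% of all. At an unadjusted p under 0.05 there were 1 of the 47, the far Ndufb4 window, and 357 of all, and with voom weights 1 and 360. Both combined libraries lay above both untreated ones at 6 windows (12.8%, against 16.8% of all) and below at 4 (8.51%, against 16.5%). The 6 include the promoters of Atp5j and Cox4i1, the latter the regulatory oxidase subunit of most tissues, and the 4 those of Ndufa12, Ndufb4 and Uqcrq.

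For BMP4 on top of TNFa, the median of TNFa+BMP4 minus TNFa was 0.020, with 24 of 47 above 0 and 0.013 over all windows. The highest were the 2 Ndufaf3 windows (0.86 ± 0.91 at the promoter and 0.77 ± 1.08 downstream), Cox7a2 (0.75 ± 0.55), Atp5j (0.65 ± 0.72) and the Atp5h window in Mrpl58 (0.57 ± 0.64). The lowest were Cox7a2l (-0.89 ± 1.20), the Ndufb4 promoter (-0.60 ± 0.55), an Itsn1 intron window assigned to Atp5o (-0.53 ± 0.57), Ndufa10 (-0.50 ± 0.64) and Atp5l (-0.49 ± 0.56). Leaving out 1 library turned 5 of these 10 and shrank the others by over 1.5 times. Without TNFa library 2, the Ndufaf3 downstream window stood at -0.11, Atp5j at -0.15, the Atp5h window at -0.14 and Cox7a2l at 0.33. Without combined library 1, the Ndufaf3 promoter stood at -0.33 and Cox7a2l at 0.59. limma called 0 of the 47 and 0% of all, with 0 and 37 at an unadjusted p under 0.05 and 0 and 34 with voom weights. Libraries did not overlap at 3 windows in the upward direction (6.38%, against 8.38% of all windows), the promoters of Cox8a, Cox7a2 and Cox4i1. They did not overlap at 1 window downward, the Ndufb4 promoter (2.13%, against 8.93% of all).

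For TNFa on top of BMP4, the median of TNFa+BMP4 minus BMP4 was 0.094, with 26 of 47 above 0 and -0.0020 over all windows. The highest were the Ndufaf3 downstream window (1.25 ± 1.08), Ndufs1 (1.18 ± 0.71), the far Ndufb4 window (0.84 ± 0.56), Cox7c (0.78 ± 0.64) and Atp5mpl (0.72 ± 0.60), a small ATP synthase subunit. The lowest were the Cox4i2 window in Bcl2l1 (-2.17 ± 0.93), the Atp5g2 window downstream (-1.25 ± 0.60), Ndufb5 (-1.11 ± 0.76), Atp5b (-1.06 ± 0.97) and the Ndufaf3 promoter (-1.001 ± 0.91). Leaving out 1 library turned 3 of these 10 and shrank 4 by over 1.5 times. Without BMP4 library 2, Cox7c stood at 0.13, Atp5b stood at 0.24 and the Ndufaf3 downstream window at -0.29, and without combined library 2 the Ndufaf3 promoter stood at 0.18. limma called 0 of the 47 and 0% of all. At an unadjusted p under 0.05 there were 1 of the 47, the Bcl2l1 window, and 230 of all, and with voom weights 1 and 238. Libraries did not overlap upward at 5 windows (10.6%, against 11.7% of all) and downward at 6 (12.8%, against 13.5%). The 5 include the promoters of Ndufs1, Sdhc, Ndufa2 and Atp5mpl, and the 6 those of Ndufs8, Ndufb5, Ndufb2 and Uqcrq.

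**Figure D4:**
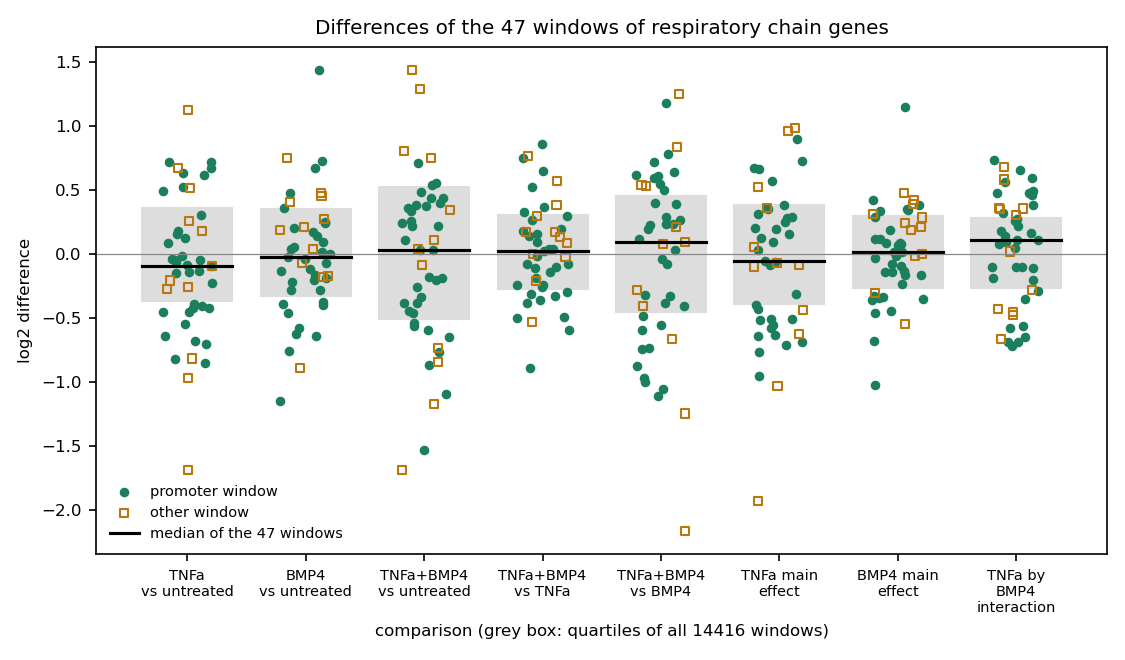
Log2 differences of the 47 windows in the 8 comparisons, with promoter windows as filled circles and other windows as open squares. The black line is their median and the grey box runs from the lower to the upper quartile of all 14416 windows. The medians lie between -0.094 and 0.11, inside the box in each comparison.

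Taking the 4 libraries with TNFa against the 4 without, the median was -0.055 with 23 of 47 above 0, and 18 of 35 promoter windows were above 0. The 3 windows with an unadjusted p under 0.05 all lay away from promoters. The Cox4i2 window in Bcl2l1 had 41.9 and 229 tags-per-million in untreated cells and 89.3 and 214 with BMP4, and 17.2 and 49.0 with TNFa and 46.5 and 18.1 with both. It differed by -1.93 ± 0.66 (limma, adjusted p = 0.854), with untreated library 1 inside the range of the TNFa libraries. Without untreated library 2 and BMP4 library 2, which stand apart together, the difference was -1.01. The far Ndufb4 window had 31.0 and 41.1 in untreated cells, 59.5 and 41.3 with BMP4, 92.7 and 69.3 with TNFa, and 124 and 65.7 with both. Its 4 libraries with TNFa lay above the 4 without (0.98 ± 0.39, limma adjusted p = 0.854). It was 1 of 47 such windows, against 1.82% of all windows. No window lay wholly lower with TNFa (0 of 47, against 2.62% of all). The Atp5g2 window 14177 bp downstream had 32.7 and 82.1 in untreated cells, 61.8 and 78.2 with BMP4, 34.3 and 23.9 with TNFa, and 36.7 and 21.5 with both (-1.03 ± 0.43, limma adjusted p = 0.854). Untreated library 1 lay within the range of the libraries with TNFa. Without the 2 libraries that stand apart the difference was -0.62, and that of the far Ndufb4 window was 0.95.

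Next in size were the Ndufaf3 downstream window (0.96 ± 0.77) and the promoters of Ndufs1 (0.90 ± 0.50), Cox7c (0.73 ± 0.45) and Sdhc (0.67 ± 0.39) above 0, and those of Atp5b (-0.96 ± 0.69), Ndufb5 (-0.76 ± 0.54) and Ndufaf3 (-0.71 ± 0.64) below. Leaving out 1 library shrank 6 of the 10 values of this comparison by over 1.5 times and turned 0. Without the 2 libraries that stand apart, Atp5b stood at 0.26 and the Ndufaf3 downstream window at -0.22. limma called 0 of the 47 and 0% of all windows for TNFa, with 3 and 628 at an unadjusted p under 0.05 and 3 and 624 with voom weights. With the replicate number as a block, limma called 119 of all windows (0.825%) and 0 of the 47, with 2719 and 7 at an unadjusted p under 0.05. The 7 were the 3 windows above, the Ndufaf3 downstream window, the Atp5h window 6214 bp from its start, and the promoters of Ndufs1 and Atp5b. Under the block the Bcl2l1 window came nearest to the threshold (-1.93 ± 0.47, limma adjusted p = 0.067), followed by the far Ndufb4 window (adjusted p = 0.159) and the Atp5g2 window (adjusted p = 0.169).

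Taking the 4 libraries with BMP4 against the 4 without, the median was 0.017 with 24 of 47 above 0. The Ndufaf3 promoter had 20.1 and 82.9 tags-per-million untreated, 27.5 and 33.5 under TNFa, 154 and 85.8 under BMP4, and 131 and 23.8 under both factors. The difference was 1.15 ± 0.64 (limma, adjusted p = 1.000), and combined library 2 lay below untreated library 2. The Ndufb4 promoter had 41.1 and 46.9 untreated, 39.5 and 45.4 under TNFa, 17.2 and 36.2 under BMP4, and 21.1 and 35.1 under both factors. At this subunit of complex I all 4 libraries with BMP4 lay below all 4 without (-0.68 ± 0.39, limma adjusted p = 1.000). It was 1 of 47 such windows, against 0.853% of all windows, and 0 of 47 lay wholly higher, against 0.777% of all. The Cox7a2l promoter had 80.4 and 109 untreated, 24.03 and 143 under TNFa, 17.2 and 95.4 under BMP4, and 9.87 and 90.6 under both factors (-1.02 ± 0.85, limma adjusted p = 1.000). In 3 of its groups the first library was far below the second.

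The other high values were at the Ndufaf3 downstream window (0.48 ± 0.77), Cox7a2 (0.42 ± 0.39), the Ndufb4 window 22229 bp upstream (0.42 ± 0.71) and the Atp5h window in Mrpl58 (0.39 ± 0.46). The other low values were at the nearer Cox4i2 window (-0.55 ± 0.61), Ndufa12 (-0.46 ± 0.43) and Ndufa10 (-0.44 ± 0.45). Leaving out 1 library turned 2 of the 10 values of this comparison and shrank the other 8 by over 1.5 times. Without BMP4 library 1 the Ndufaf3 downstream window stood at -0.30 and the Ndufb4 window at -0.094, and without combined library 1 the latter stood at -0.22. limma called 0 of the 47 and 0% of all windows for BMP4, with 0 and 158 at an unadjusted p under 0.05 and 0 and 155 with voom weights.

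The interaction asks whether the 2 factors together differ from the sum of their effects. Its median was 0.11 with 28 of 47 above 0, beside 0.023 over all windows. Of the 35 promoter windows 21 were above 0 (60.0%, against 52.5% of all promoter windows). The 7 promoters of complex IV were all above 0, with a median of 0.26, and the 3 of complex I assembly factors were all below. Complex I had 8 of 12 above 0, II and III 1 of 2 each, and V 4 of 9. These promoters share the same 8 libraries, and no complex was tested as a set. The highest were Atp5mpl (0.73 ± 0.85), the nearer Cox4i2 window (0.68 ± 1.22), Cox7a2 (0.66 ± 0.78), Atp5j (0.59 ± 1.02) and the Ndufaf3 downstream window (0.58 ± 1.53). The lowest were Ndufaf1 (-0.72 ± 1.02), Ndufb5 (-0.69 ± 1.08), the Atp5g2 promoter (-0.68 ± 0.95), the Ndufb4 window 22229 bp upstream (-0.66 ± 1.42) and Ndufs8 (-0.65 ± 0.95). Each of these is smaller than its standard error, and leaving out 1 library turned 8 of the 10. limma called 0 of the 47 and 0% of all windows, with 0 and 0 at an unadjusted p under 0.05, and 0 and 0 with voom weights.

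Other genes of the pathway were taken from 2 lists. Of 43 assembly factors and electron carriers, such as Surf1, Sco1, Coa7 and Cycs, 21 had a tested window, 28 windows in all. In every comparison 0 of the 28 were called higher and 0 lower. Their median was 0.11 with TNFa (16 above 0), -0.20 with BMP4 (9 above 0) and 0.21 with both (19 above 0), each against untreated cells. Against untreated cells the highest and lowest values were both in the combined group, at the promoter of Tmem126a, a complex I assembly factor (3.03 ± 1.60, limma adjusted p = 0.897), and at that of Cox16, a factor for complex IV (-1.71 ± 1.31, limma adjusted p = 0.897). Of 18 regulators of these genes and of mitochondrial DNA, 10 had a tested window, 13 in all, and again 0 were called in either direction in any comparison. Their medians against untreated cells were 0.22 with TNFa, 0.19 with BMP4 and 0.26 with both. The highest of these values was at the promoter of Gabpb1, a GABP subunit (1.03 ± 0.62 with BMP4), and the lowest at 1 promoter window of Yy1 (-1.45 ± 0.90 with both).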

How the data were processed

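The members and gene lists were chosen with earlier results of these data known. The submitters' processing notes name Trimmomatic 0.39, Picard 2.25.1, Bowtie2 2.5.1, HOMER 4.11, deepTools 3.5.1 and build mm10. Peaks of 125 bp were called by the authors with HOMER for each group, its libraries pooled, over the 2 background libraries, with DESeq2 as the test, per the file headers. The sources used here do not state a transposase shift of the reads. The deposited lists hold a log2 fold over background, a p-value and its adjusted value, and a column per library. The headers call these columns tag counts, yet they hold regularised log2 values that the authors fitted list by list, so the deposited lists are not on 1 scale.

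The regularised-log equation, with 4 fitted constants a list, was solved for the counts. Of the values, 99.3% to 100.0% came within 0.1 of a whole number, against 16.6% to 19.0% with the constants moved by 5%. In the 2914 windows with identical coordinates 100% of background counts were equal in all lists. Windows overlapping by at least 50% (63 bp) in all 4 lists were joined. The tags of a group were those of its own list's window, so a difference can compare overlapping stretches that are not the same. Identical coordinates in all 4 lists held for 9 of the 47 windows. The positions and distances given for joined windows are those of the untreated list. Tested windows had to reach a depth-scaled count of 10 in 2 or more libraries and 15 tags in total. limma 3.58.1 (R 4.3.3) was run with a mean-variance trend on log2 of count times TMM scale plus a pseudocount of 2. The fit held all 8 ATAC libraries with group as its term. Replicate numbers are shared between groups, though the labels do not say that they mark a culture or day. The difference of library 2 from library 1 correlated at 0.11 to 0.76 between groups, so a fit with the number as a block was run beside it. Two-sided p-values were used, with the Benjamini-Hochberg adjustment taken across all 14416 windows and a threshold of 0.05. A difference on this scale understates that of low windows. Scripts were tested on simulated data. Named windows are the 5 highest and 5 lowest in each comparison, the 6 with the highest level, the 3 with the smallest p for each factor, and the strongest promoter of each complex, with the regions held by the lists of 1 pair of groups only. Results of 1 gene are not reported by name.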

Additional observations from a re-analysis of the deposited data

How the results depend on the processing

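In 24 alternatives to the fit for the comparisons of group pairs, and 22 for the effects of each factor and the interaction, 0 respiratory chain windows were called. With a replicate block, 119 of all windows and 0 of the 47 were called for TNFa, where the fit without it called 0. The cause was not tested. The block changed no other call.

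With scaling by total tags the median over all windows was -0.15 for TNFa and -0.14 for both factors against untreated cells, -0.15 for both against BMP4 and -0.15 for the TNFa effect, and that of the 47 windows was -0.24, -0.095, -0.053 and -0.20. Identical coordinates left 9 windows, with medians of -0.21, -0.14, -0.27 and -0.40 in the same order. A mean count of at least 30 left 34 windows, with -0.21 for both against untreated, -0.14 for both against BMP4 and -0.19 for the TNFa effect. An overlap of at least 80% gave -0.21 for both against untreated, and 1 window per gene gave -0.082 for both against TNFa. In these last cases fewer windows entered. With lists of 1 length, 6 regions in place of 12 were in all lists but BMP4. The medians moved by over 1 SD between replicates in 23 of 210 cases.

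Leaving out each library in turn gave a median of -0.22 to 0.021 for BMP4 against untreated, -0.24 to 0.042 for both against untreated, -0.12 to 0.070 for both against TNFa, -0.089 to 0.076 for the BMP4 effect and -0.036 to 0.24 for the interaction. For TNFa against untreated the median ranged from -0.17 to -0.028. Single windows that changed sign ranged as follows. For TNFa against untreated, the Ndufaf3 downstream window ranged from -0.19 to 1.56 and Atp5b from -1.96 to 0.28. For BMP4 against untreated, the Ndufb4 window 22229 bp upstream ranged from -0.28 to 1.76, Ndufb5 from -0.22 to 1.63, Ndufs8 from -0.12 to 1.42, the Bcl2l1 window from -0.71 to 1.63, Cox7a2l from -2.32 to 0.021, the nearer Cox4i2 window from -1.94 to 0.16 and Ndufs1 from -1.48 to 0.17. For both against untreated, Atp5b ranged from -2.21 to 0.035. For both against TNFa, the Ndufaf3 promoter ranged from -0.33 to 2.04, its downstream window from -0.11 to 1.63, Atp5j from -0.15 to 1.44, the Atp5h window from -0.14 to 1.27 and Cox7a2l from -2.38 to 0.59. For both against BMP4, the Ndufaf3 downstream window ranged from -0.29 to 2.81, Atp5b from -2.34 to 0.24 and the Ndufaf3 promoter from -2.19 to 0.18. For the BMP4 effect, the Ndufaf3 downstream window ranged from -0.30 to 1.25 and the Ndufb4 window from -0.22 to 1.05. For the interaction, Atp5mpl ranged from -0.0069 to 1.47, the nearer Cox4i2 window from -0.36 to 1.73, Atp5j from -0.19 to 1.38, the Ndufaf3 downstream window from -0.96 to 2.15, Ndufb5 from -1.59 to 0.26, Atp5g2 from -1.43 to 0.060, the Ndufb4 window from -1.94 to 0.60 and Ndufs8 from -1.40 to 0.14. A library left alone in its group was taken to vary like the others.

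Without untreated library 2 and BMP4 library 2 together, an alternative chosen after seeing the data, the median of the TNFa effect was 0.056. Atp5b stood at 0.28 for TNFa against untreated, 0.036 for both against untreated, 0.24 for both against BMP4 and 0.26 for the TNFa effect. The Ndufaf3 downstream window stood at -0.16 for TNFa against untreated, -0.29 for both against BMP4, -0.22 for the TNFa effect and -0.13 for the interaction. The standard error of a difference between a pair of groups ranged from 0.48 to 1.20 over the 47 windows, with a median of 0.64, which limits what these libraries can show.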
